A study of Drosophila melanogaster with 3 samples.

Results

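The POU homeodomain genes acj6, pdm3, vvl, nub and pdm2 were followed across single-cell libraries of the Drosophila melanogaster larval brain. The 5 genes were taken by symbol from a feature list of 13988 entries. All 5 were listed in every library. POU proteins are transcription factors that bind DNA through a POU-specific domain joined to a homeodomain, and in neurons they are known for fixing neuronal identity after the last division. acj6 (abnormal chemosensory jump 6) is known for olfactory receptor choice, for the wiring of olfactory projection neurons and for control of the cholinergic gene locus. vvl (ventral veins lacking, also called drifter) acts in tracheal development and in projection neurons of another olfactory lineage. pdm3 acts in the axon targeting of olfactory and central brain neurons. nub (nubbin) and pdm2 are neighbouring paralogs whose products, in the embryonic nerve cord, mark a neuroblast time window between those of Kr and cas.

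The files held 3 libraries, with 1 library per genotype and no replicate, all carrying the same batch label. Larval brains were taken at 72 to 96 h after egg laying at 25 °C, and type 1 neuroblasts with their progeny were sorted by fluorescence. Every genotype carried GFP-tagged Sqh, the regulatory light chain of non-muscle myosin, on the X chromosome, with worGal4 and UAS-mCherry::Jupiter, a microtubule marker, on chromosome 3. worGal4 is a neuroblast driver, so transgene expression in progeny depends on inheritance and perdurance. The control had no further allele. The library labelled mud also carried the mud4 allele; mud encodes a protein that orients the mitotic spindle. The nanobody library carried UAS-ALDInscuteable RockKinase domain-VhhGFP4-HA on chromosome 3, a fusion of a kinase domain to a nanobody against GFP. The number of brains pooled per library is not given in the sources used here, and no transcript in these data checks the mud4 label.

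With 1 library per genotype no difference between genotypes could be tested. Values below are given side by side with exact 95% intervals that cover counting error only. Called cells had at least 1000 unique molecular identifiers (UMIs), at least 500 detected genes and at most 20% mitochondrial UMIs. They numbered 14852 in control, 15194 in mud and 14415 in nanobody, with medians of 6528.5, 6176 and 6863 UMIs per cell. Between 59 and 78 called barcodes were shared by any pair of libraries, at most 0.541% of a library. Cells were placed in 4 gates. The dpn gate needed at least 1 UMI of the neuroblast factor dpn and held 457, 862 and 854 cells in control, mud and nanobody. The ase gate needed at least 2 UMIs of the proneural factor ase with no dpn UMI and held 3938, 3748 and 3362 cells. The nSyb gate needed at least 1 UMI of the synaptic vesicle gene nSyb and held 5004, 5724 and 5218 cells. The repo gate needed at least 2 UMIs of the glial factor repo and held 89, 107 and 59 cells. Cells outside every gate numbered 5667, 5263 and 5266.

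The dpn, nSyb and repo gates fitted their defining markers with some spill between them. mira, a neuroblast scaffold, was at 698, 816 and 693 CPM (UMIs of the gene scaled to all UMIs of the gate) in the dpn gate and at 18, 54 and 22 CPM in the nSyb gate. The vesicle sensor Syt1 was at 447, 423 and 421 CPM in the nSyb gate and at 21, 44 and 29 CPM in the dpn gate. The glial gene alrm was at 712, 942 and 862 CPM in the repo gate. The ase gate was mixed. Its summed neuron markers were at 3472, 2770 and 3360 CPM. They were at 1550, 1484 and 1685 CPM in the dpn gate and 5750, 5259 and 5182 CPM in the nSyb gate. In the ase gate summed neuroblast markers, ase included, were at 1229, 1262 and 1116 CPM, against 138, 257 and 139 CPM in nSyb cells. Markers of ganglion mother cells summed there to 2277, 2569 and 2416 CPM, against 2008, 2099 and 2087 CPM in ungated cells. Cells in 2 or more gates made up 3.29% of gated control cells, 5.12% of gated mud cells and 3.75% of gated nanobody cells. In the dpn gate 49 of 457 control cells, 141 of 862 mud cells and 86 of 854 nanobody cells also held nSyb UMIs. Summed hemocyte markers were at 4.12 CPM in control, 40.6 CPM in mud and 6.83 CPM in nanobody nSyb cells, and at 1.23, 237 and 262 CPM in ungated cells; their part in the results was not tested.

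Positions were joined by FlyBase identifier to Ensembl release 115, assembly BDGP6.54. acj6 (FBgn0000028) lies on the minus strand of X:15350239-15379064, pdm3 (FBgn0261588) on the plus strand of 2R:8327490-8396280, and vvl (FBgn0086680) on the plus strand of 3L:6790158-6794941. nub (FBgn0085424, 2L:12587625-12628135) and pdm2 (FBgn0004394, 2L:12657165-12686306) lie in the same orientation, 29.0 kb apart. Exons of the 5 genes overlapped no exon of another annotated gene. CG11635 and CG8701 lie on the same strand within pdm3, and Pp1-13C on the same strand within acj6. Whether intronic reads were counted is not given in the sources used here, so reads of such a nested gene and of its host may not be separable. A UMI counts a 3′ end of a molecule once, and levels were compared between genes without scaling for length. The genes span 68791 bases for pdm3, 28826 for acj6 and 4784 for vvl, and any part of length in their levels was not tested.

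In neurons the genes fell into 2 levels of abundance. pdm3 was the most abundant in every library, with 984 CPM in control (95% interval 974 to 993), 763 CPM in mud (756 to 771) and 1076 CPM in nanobody (1067 to 1085) in the nSyb gate. vvl stood at 252 CPM (247 to 257), 253 CPM (248 to 257) and 266 CPM (261 to 270). acj6 stood at 174 CPM (170 to 178), 164 CPM (160 to 167) and 185 CPM (181 to 188). The order pdm3, vvl, acj6 held in all 3 libraries with intervals that did not touch. nub reached only 0.857 CPM in control (0.603 to 1.18), 2.59 CPM in mud (2.17 to 3.08) and 1.29 CPM in nanobody (0.996 to 1.65). pdm2 was lower still, at 0.208 CPM (0.0953 to 0.396), 1.45 CPM (1.14 to 1.83) and 0.606 CPM (0.409 to 0.865). The UMI intervals of nub and pdm2 did not overlap within any library, but they are too narrow, since the UMIs came from few cells. nub was in 8, 36 and 13 nSyb cells and pdm2 in 4, 18 and 8. The intervals for shares of cells overlapped in every library. For nub they were 0.0690% to 0.315%, 0.441% to 0.870% and 0.133% to 0.426%. For pdm2 they were 0.0218% to 0.205%, 0.186% to 0.497% and 0.0662% to 0.302%. The order of nub and pdm2 is therefore not settled.

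**Figure D1:**
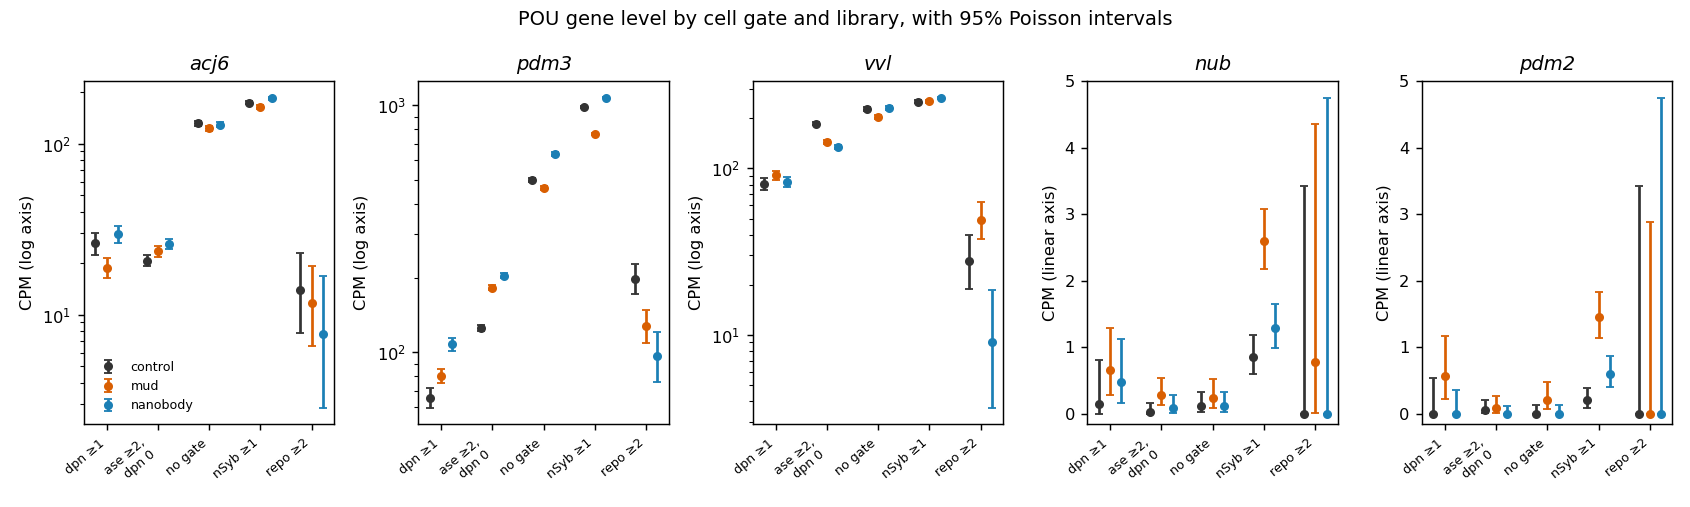
Level of each POU gene in CPM (its UMIs scaled to all UMIs of the gate), by cell gate on the x axis and library by colour. Points are single libraries and bars exact 95% Poisson intervals; the axis is logarithmic for acj6, pdm3 and vvl and linear for nub and pdm2. acj6 and pdm3 rise from the dpn gate to the nSyb gate in every library, whereas nub and pdm2 stay below 3 CPM.

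acj6 and pdm3 were lower in the dpn and ase gates than in ungated cells, and highest in the nSyb gate. For acj6 the dpn gate held 26.1, 18.8 and 29.5 CPM in control, mud and nanobody, the ase gate 20.6, 23.5 and 25.8 CPM, and ungated cells 132, 123 and 129 CPM. The acj6 level of the dpn gate lay above that of the ase gate in control and below it in mud, while the intervals overlapped in nanobody. The control order turned when cells of 2 or more gates were left out, to 14.6 CPM in the dpn gate and 16.3 CPM in the ase gate, and when doublets were removed, to 9.81 and 12.1 CPM. For pdm3 the dpn gate held 65.2, 80.2 and 108 CPM, the ase gate 125, 183 and 204 CPM, and ungated cells 498, 462 and 635 CPM. Each step from dpn to ase to ungated to nSyb cells was upward for pdm3 in all 3 libraries.

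vvl was spread more evenly. It stood at 81.0, 90.9 and 82.6 CPM in the dpn gate, at 186, 145 and 135 CPM in the ase gate and at 228, 204 and 230 CPM in ungated cells. Its level was lowest in the repo gate, at 27.8, 49.2 and 9.0 CPM, and the dpn gate was the next lowest in every library.

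The shares of cells with a UMI separated the genes in another way. In the nSyb gate pdm3 was detected in 64.1% of control cells, 61% of mud cells and 68.3% of nanobody cells. vvl was detected in 24.1%, 24.3% and 24.9%, and acj6 in 12.2%, 13.6% and 13.1%. After each cell was thinned to 1000 UMIs these shares were 41.5%, 36.0% and 43.9% for pdm3, 14.4%, 14.0% and 15% for vvl, and 8.77%, 8.51% and 9.01% for acj6. The order of the genes was the same at both depths.

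Free RNA also gives UMIs, so the shares were set against the repo gate. Of its cells 18 of 89, 21 of 107 and 10 of 59 also passed another gate. Summed neuron markers stood there at 1885, 1466 and 1134 CPM, so it may not be a clean background. In the repo gate, at medians of 9935, 9813 and 10413 UMIs per cell, acj6 was detected in 3.37%, 2.80% and 6.78% of cells, vvl in 7.87%, 7.48% and 3.39%, and pdm3 in 50.6%, 48.6% and 42.4%. The nSyb gate had medians of 7946.5, 7678 and 8760.5 UMIs. The nSyb shares lay above the repo shares for each of the 3 genes in every library, although the repo interval of acj6 in nanobody, from 59 cells, reached 16.5%. Below the cell range, in barcodes of 20 to 200 UMIs, there were 82.3, 103 and 90.3 CPM of acj6, 393, 739 and 547 CPM of pdm3 and 143, 166 and 151 CPM of vvl. The acj6 shares in the dpn gate (5.03%, 6.38% and 6.56%) and the ase gate (2.87%, 4.19% and 4.31%) lay within the repo interval of the same library. The repo shares rest on 3, 3 and 4 cells, so they do not settle expression in these gates. With cells of 2 or more gates left out they were 1.41%, 1.16% and 4.08%. The repo shares of pdm3 were then 46.5%, 43.0% and 40.8%, and those of vvl 8.45%, 4.65% and 4.08%. With doublets removed the repo gate held 0, 2 and 6 acj6 UMIs, and its pdm3 level was 122, 109 and 99.9 CPM. Cells with at least 5 acj6 UMIs were 1.07%, 1.28% and 1.37% of the ase gate and held 85.8%, 82.6% and 83.8% of its acj6 UMIs. In the repo gate such cells were 1.12%, 0.935% and 0%. The pdm3 shares in the dpn gate (16.2%, 20.9% and 20.5%) and the ase gate (21.1%, 29.2% and 34.1%) were below the repo shares. Whether glia themselves express pdm3 was not tested, so this comparison does not settle expression in these gates. Ase cells with at least 5 pdm3 UMIs were 7.77%, 10.8% and 13.6% of the gate, against 18.0%, 10.3% and 3.39% of the repo gate. Those ase cells held 77.7%, 79.0% and 80.3% of the pdm3 UMIs of their gate. vvl shares were above those of the repo gate, at 18.8%, 22.5% and 16.7% in the dpn gate and 31.9%, 26.0% and 26.7% in the ase gate.

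Positive neurons carried many molecules of acj6. An acj6-positive nSyb cell had a median of 11 acj6 UMIs in control, 10 in mud and 13 in nanobody. Cells with at least 5 acj6 UMIs were 9.99%, 10.3% and 10.7% of the gate and held 97.1%, 95.7% and 97.6% of its acj6 UMIs. The highest cell had 54, 54 and 59 UMIs. In the dpn gate, by contrast, 52.2%, 63.6% and 55.4% of acj6-positive cells had a single UMI, against 8.54%, 14.0% and 10.4% in the nSyb gate. Even so, 8, 13 and 15 dpn gate cells with at least 5 acj6 UMIs held 89.9%, 76.5% and 81.0% of its acj6 UMIs.

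pdm3 and vvl had broader distributions. A pdm3-positive nSyb cell had a median of 8, 6 and 9 pdm3 UMIs, with highest values of 115, 90 and 131. A vvl-positive cell had a median of 8, 7 and 8 vvl UMIs, with highest values of 44, 86 and 62. Cells with at least 5 UMIs were 43.0%, 36.6% and 46.6% of the gate for pdm3 and 16.7%, 15.6% and 17.4% for vvl. acj6 thus lost the smallest share of its positive cells when the requirement went from 1 UMI to 5.

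**Figure D2:**
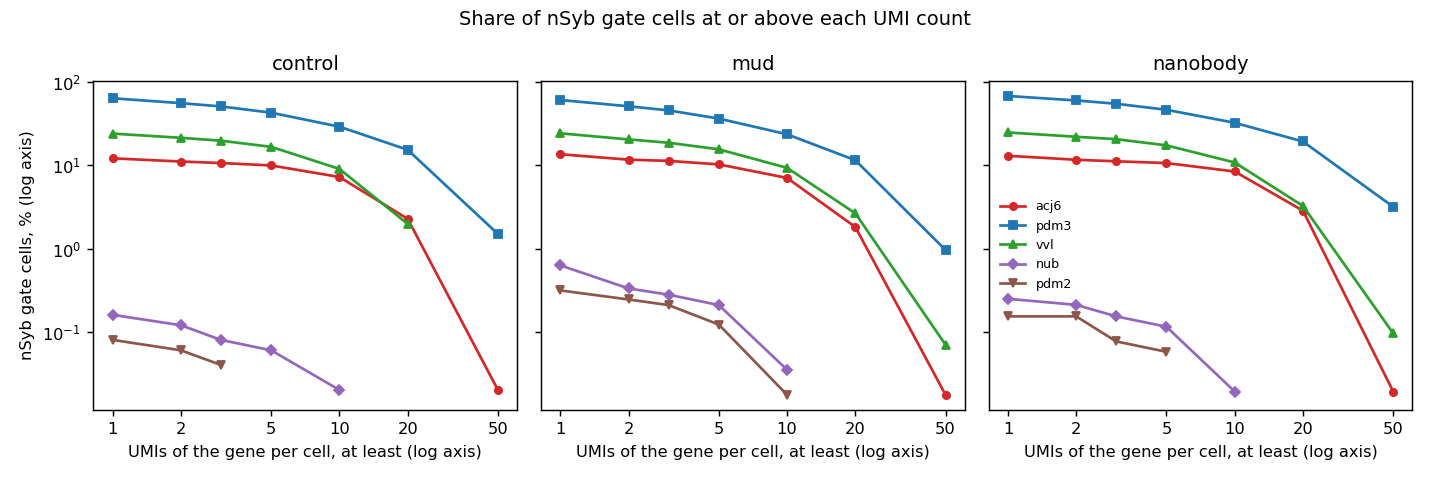
Share of nSyb gate cells (percent, log axis) with at least the number of UMIs on the x axis (log axis), for each POU gene, with 1 panel per library. The acj6 curve stays nearly flat to 5 UMIs (12.2% to 9.99% in control), whereas pdm3 falls from 64.1% to 43.0% and vvl from 24.1% to 16.7%.

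Across genotypes the neuronal levels of acj6 and vvl differed little. Differences are log2 ratios of CPM + 5, so they understate changes of low genes, and a gene was called when it differed by at least 1.5-fold and reached 20 CPM in either library. In the nSyb gate the acj6 difference was -0.08 for mud over control (interval -0.13 to -0.04) and 0.08 for nanobody over control (0.04 to 0.13). The vvl differences were 0.00 (-0.03 to 0.04) and 0.08 (0.04 to 0.11). The pdm3 difference was -0.36 for mud (-0.38 to -0.34) and 0.13 for nanobody (0.11 to 0.15). None of the 3 was called in either comparison. Across all genes tested in the nSyb gate, 4.33% were called up and 0.705% down for mud, and 0.421% up and 0.801% down for nanobody, around medians of -0.05 and -0.02. Both comparisons share the control library. The intervals exclude a 1.5-fold change of these 3 genes as far as counting error goes, but how far 2 libraries of the same genotype would differ was not measured.

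In the ase gate pdm3 and vvl moved apart. pdm3 was at 125 CPM in control (122 to 129), 183 CPM in mud (178 to 188) and 204 CPM in nanobody (199 to 209), so both altered libraries lay above control. The differences were 0.53 for mud (0.47 to 0.58), which was not called, and 0.68 for nanobody (0.63 to 0.74), which was called up. vvl was at 186 CPM (182 to 191), 145 CPM (140 to 149) and 135 CPM (131 to 139), so both altered libraries lay below control. Its differences were -0.35 (-0.41 to -0.30) and -0.45 (-0.51 to -0.40), neither called. Over all genes tested in the ase gate 5.95% were called up and 1.47% down for mud, and 1.26% up and 0.502% down for nanobody. After thinning, pdm3 was in 8.41%, 11.4% and 14.5% of ase cells, against 22.5%, 9.35% and 6.78% of repo cells. The ase shares lay within the repo interval in mud (4.57% to 16.5%) and nanobody (1.88% to 16.5%) and below it in control (14.3% to 32.6%). Those repo shares rest on 20, 10 and 4 cells, so they do not settle whether ase cells express pdm3. The thinned vvl shares were 12.8%, 9.02% and 9.58%. With cells of 2 or more gates left out, the pdm3 differences were 0.56 and 0.83 and the vvl differences -0.47 and -0.52. pdm3 in barcodes of 20 to 200 UMIs was also above control in both altered libraries, and elav, a pan-neuronal gene, was at 2649, 1781 and 2514 CPM in the ase gate; their part in the result was not tested.

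In the dpn gate pdm3 was at 65.2 CPM (59.3 to 71.6), 80.2 CPM (75.3 to 85.4) and 108 CPM (102 to 114). The nanobody difference of 0.68 (0.53 to 0.83) was called up, beside 1.10% of genes called up and 0.366% down, but was 0.55 and no longer called after thinning; the mud difference was 0.28 (0.13 to 0.43), beside 6.44% up and 1.24% down. When cells of 2 or more gates were left out, pdm3 fell to 16.1, 34.0 and 44.3 CPM in the 3 libraries and the differences became 0.88 and 1.22. Of 448, 983 and 1120 pdm3 UMIs in the dpn gate, 95, 313 and 395 remained, so most came from cells that also passed another gate. acj6 differed by -0.39 (-0.62 to -0.15) and 0.15 (-0.08 to 0.38), and vvl by 0.16 (0.02 to 0.30) and 0.03 (-0.12 to 0.17). These directions were not stable, since acj6 in mud was 0.15 with doublets removed and vvl was -0.29 and -0.69 after thinning.

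The repo gate was too small to carry genotype differences. pdm3 was at 199, 127 and 96.5 CPM there, from 214, 163 and 75 UMIs, and both altered libraries were called down at -0.62 and -1.0. vvl, from 30, 63 and 7 UMIs, was called up in mud at 0.72 and down in nanobody at -1.23. In that gate 9.99% of all genes were called up and 12.3% down for mud, and 11.3% up and 13.1% down for nanobody. acj6 gave 15, 15 and 6 UMIs. nub gave 0, 1 and 0 UMIs, and no pdm2 UMI was found in 89, 107 and 59 cells, which allows shares of cells with a UMI of up to 3.37%, 2.80% and 5.08% by the limit of 3 counts. The upper ends of the exact 95% intervals were 4.06%, 3.39% and 6.06%.

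Pairs of POU genes were then compared within cells. Each odds ratio asks whether a cell with one gene more often held the other, within 5 strata of UMIs per cell. The strata hold depth only roughly equal, and the part of depth differences within a stratum was not tested. Cells of a library share their preparation, so the intervals cover counting error, and the 3 libraries stand as separate values. Of the 10 pairs, acj6 with vvl, pdm3 with vvl and acj6 with pdm3 had at least 5 nSyb cells expected in every library. So did pdm3 with nub. The 7 pairs with nub or pdm2 rest on few cells and are given further on. Their odds ratios are given there where at least 5 cells were expected and a ratio could be fitted.

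acj6 and vvl were found in the same neurons less often than their separate shares predict. They were found together in 68 of 5004 control cells, 124 of 5724 mud cells and 96 of 5218 nanobody cells. From their separate shares within the depth strata 153, 196 and 174 would have been expected. The odds ratios were 0.331 (0.254 to 0.431), 0.513 (0.418 to 0.630) and 0.428 (0.340 to 0.538). With at least 5 UMIs of each gene 32, 48 and 54 cells held both, against 90.4, 101 and 106 expected. The ungated cells gave odds ratios of 0.458, 0.664 and 0.371. All values lay below 1 in the 3 libraries, in both cell sets. Removing scored doublets gave 0.267, 0.50 and 0.369 in the nSyb gate.

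pdm3 and vvl were found together more often than their shares predict. Both were in 942, 983 and 1043 nSyb cells, which were 78.0%, 70.6% and 80.3% of the vvl-positive cells. The odds ratios were 2.46 (2.11 to 2.87), 1.76 (1.54 to 2.01) and 2.22 (1.91 to 2.59). The mud interval lay below that of control, but no difference between libraries was tested. acj6 and pdm3 were together in 427, 576 and 524 cells, with odds ratios of 1.41 (1.17 to 1.69), 1.93 (1.63 to 2.29) and 1.65 (1.36 to 2.00). Ungated cells gave 1.38, 1.40 and 1.5 for pdm3 with vvl, each interval above 1. For acj6 with pdm3 they gave 1.22 (0.987 to 1.5), 1.36 (1.11 to 1.68) and 1.01 (0.818 to 1.24). At 5 UMIs of each gene the acj6 and pdm3 values were 1.33, 1.73 and 1.58 in the nSyb gate but 0.981 (0.698 to 1.38), 1.01 (0.703 to 1.45) and 0.608 (0.430 to 0.859) in ungated cells. The direction of the nSyb gate was thus not seen in ungated cells at 5 UMIs.

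In the ase gate the pdm3 and vvl pair depended on the UMIs required. At 1 UMI of each the odds ratios were 0.620 (0.518 to 0.743), 0.734 (0.620 to 0.868) and 0.552 (0.463 to 0.658), the opposite side of 1 from neurons. At 5 UMIs of each they were 1.62 (1.17 to 2.24), 2.25 (1.65 to 3.07) and 1.83 (1.35 to 2.48). Those ratios rest on 52, 63 and 63 cells with both, against 36.5, 35.7 and 40.9 expected. The direction therefore turned with the UMIs required in each library. Cells that passed at 5 UMIs are among those that passed at 1 UMI, and cells below 5 UMIs were not analysed apart.

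**Figure D3:**
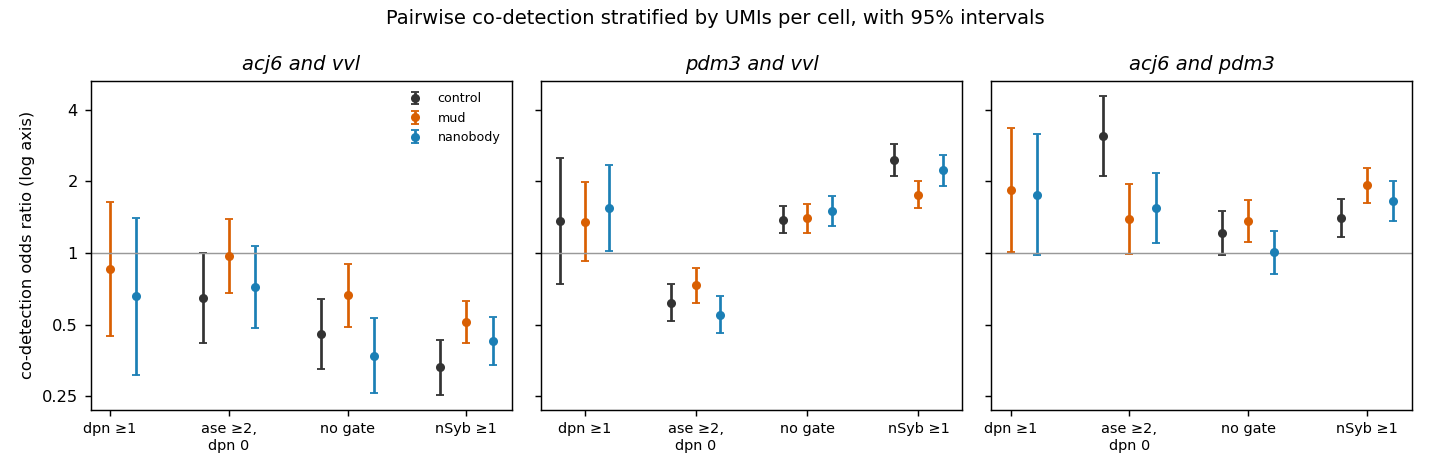
Odds ratio of finding both genes of a pair in a cell (log axis), stratified by UMIs per cell, by gate on the x axis and library by colour; bars are 95% intervals for counting error and the line marks 1. At 1 UMI of each gene, as drawn, acj6 with vvl lies below 1 in nSyb cells (0.331, 0.513 and 0.428). pdm3 with vvl lies above 1 in nSyb cells and below 1 in the ase gate. At 5 UMIs of each gene, not drawn, pdm3 with vvl in the ase gate was above 1 (1.62, 2.25 and 1.83). Pairs with fewer than 5 cells expected are not drawn.

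Most neurons held at least one of these 3 genes. Cells with none of them were 27.2% of the nSyb gate in control, 28.7% in mud and 23.9% in nanobody. pdm3 alone was the most frequent state, at 37.9%, 35.5% and 39.96%. pdm3 with vvl followed among the positive states at 17.7%, 15.5% and 18.3%, then acj6 with pdm3 at 7.43%, 8.37% and 8.39%. vvl alone made up 5.04%, 6.67% and 4.71%, and acj6 alone 3.38%, 3.09% and 2.82%. All 3 genes were found in 1.10%, 1.69% and 1.65%, and acj6 with vvl but no pdm3 in 0.26%, 0.472% and 0.192%. The order of these 8 states was the same in the 3 libraries.

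acj6 tracked the cholinergic transmitter genes. Neurons were split by whether they held UMIs of only VAChT (the vesicular acetylcholine transporter), only VGlut (the vesicular glutamate transporter) or only Gad1 (the enzyme that makes GABA). acj6 was found in 21.8%, 23.7% and 21.2% of VAChT cells, in 2.96%, 3.07% and 2.97% of VGlut cells and in 0.843%, 2.34% and 2.81% of Gad1 cells. The shares in VGlut and Gad1 cells were at the level of the repo gate, whereas those in VAChT cells were above it. In CPM acj6 stood at 328, 316 and 322 in VAChT cells, 22.8, 27.6 and 17.2 in VGlut cells and 2.08, 8.49 and 11.5 in Gad1 cells. The 3 classes held 2201, 2265 and 2339 VAChT cells, 812, 945 and 808 VGlut cells and 712, 813 and 677 Gad1 cells. Their median depths were within each library similar, at 8352, 7443.5 and 8945 UMIs in control.

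pdm3 and vvl were not split this way. pdm3 was found in 66.9%, 64.6% and 72.8% of VAChT cells, 60.3%, 58.2% and 65.1% of VGlut cells and 68.3%, 60.3% and 68.1% of Gad1 cells. vvl was found in 25.0%, 26.8% and 26.4%, in 21.4%, 21.7% and 21.8%, and in 26.1%, 21% and 25.1% of the same classes.

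**Figure D4:**
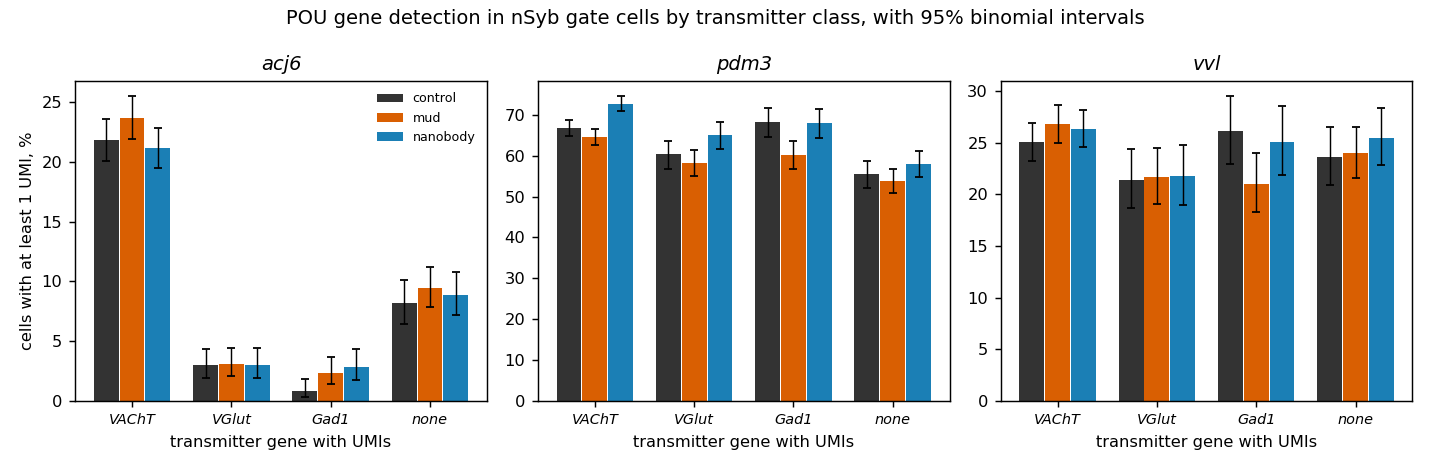
Share of nSyb gate cells with at least 1 UMI of acj6, pdm3 or vvl (percent), split by which of VAChT, VGlut and Gad1 the cell held, with libraries by colour. Bars start at 0 and carry exact 95% binomial intervals for counting error. acj6 reaches 21.2% to 23.7% in VAChT cells and at most 3.07% in VGlut or Gad1 cells, whereas pdm3 and vvl vary little between the classes.

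Of the 5 genes ranked highest by odds ratio with acj6, 3 were other homeobox genes. The share of homeobox genes among all ranked genes was not counted. The genes named are those whose smallest odds ratio over the 3 libraries was highest, among genes detected in 2% to 60% of nSyb cells. C15, a homeobox gene, had odds ratios of 34.1, 31.1 and 14.5 in control, mud and nanobody. Drgx, another homeobox gene, had 18.9, 15.5 and 16.1 and was in 37.8%, 37.1% and 40.2% of acj6-positive cells. PHDP, also a homeobox gene, had 9.75, 12.2 and 5.78. CG15725 had 5.0, 6.75 and 4.48, and VAChT 5.48, 4.95 and 4.36. VAChT was in 82.6%, 79.0% and 80.8% of acj6-positive cells. The lowest were nompB (0.158, 0.203 and 0.0501), CG4328 (0.146, 0.212 and 0.207) and Oatp26F (0.214, 0.176 and 0.104).

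Over 5469 genes 2.43% had an interval above 1 with acj6 in all 3 libraries and 2.54% an interval below 1. Of 44 identity transcription factors in the detection range 10 were above and 25 below. The 10 were unc-4, Lim3, tup, otp, dac, mab-21, Drgx, kn, C15 and slou. tup, a LIM homeobox gene of motor and other neurons, had odds ratios of 4.22, 4.79 and 3.6. kn, a COE factor, had 5.14, 5.29 and 3.17. Among the 25 were the eyeless paralogs ey (0.174, 0.443 and 0.313) and toy, and exex (0.174, 0.230 and 0.368). Of 7 transmitter genes 3 were above, namely VAChT, ChAT (2.81, 2.45 and 2.28), which makes acetylcholine, and Tbh. The 3 below were VGlut (0.233, 0.383 and 0.363), Gad1 (0.102, 0.243 and 0.218) and Vmat. Of 11 temporal factors none was above and 4 were below, namely Kr, Imp, slp2 and opa.

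pdm3 was found with a different set. CG11635 came out highest, at 34.3 in mud and 164 in nanobody, and no control cell held it without pdm3. It lies inside pdm3 on the same strand, so its UMIs may be pdm3 reads, and it is reported as uncertain. sim, a bHLH-PAS factor, had 6.47, 6.86 and 4.19. Fer3, a bHLH factor, had 4.62, 3.74 and 3.74, and the homeobox gene Rx 3.28, 2.92 and 3.07. bab2, a BTB domain factor, had 3.89, 2.81 and 3.30 and was in 62.1%, 62.1% and 58.5% of pdm3-positive cells. The lowest were CG7378 (0.0690, 0.146 and 0.104), CG8745 (0.0717, 0.161 and 0.0801) and Hr38, an activity-regulated nuclear receptor (0.0855, 0.164 and 0.0536).

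More genes passed with pdm3 than with acj6: 13.6% of 5470 genes lay above 1 in all 3 libraries and 14.6% below. Of 44 identity factors 17 were above and 12 below. Of 11 temporal factors dati and opa were above, and Kr (0.145, 0.230 and 0.130), grh (0.616, 0.603 and 0.645) and Imp (0.188, 0.301 and 0.291) were below. Imp encodes an RNA-binding protein of early-born larval neurons and Kr a zinc finger factor of early embryonic-born neurons. A homeobox list, which also holds the zinc finger gene tsh, had 6 genes in range. The 2 below were the posterior Hox genes abd-A (0.189, 0.389 and 0.279) and Abd-B (0.192, 0.390 and 0.187). VAChT was the only one of 7 transmitter genes that passed, at 1.33, 1.38 and 1.53.

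The 5 genes ranked highest by odds ratio with vvl all encode transcription factors. The share of transcription factors among all ranked genes was not counted. trh (trachealess), a bHLH-PAS factor that acts with vvl in the embryonic trachea, was highest at 12.8, 13 and 21.1 and was in 10.4%, 11.1% and 10.4% of vvl-positive cells. exex, a homeobox gene of motor neurons, had 7.42, 8.48 and 5.97. The neighbouring homeobox paralogs B-H1 and B-H2 had 5.87, 9.41 and 5.78, and 5.56, 6.90 and 6.29. HLH3B, a bHLH factor, had 7.35, 6.36 and 4.64. The lowest were C15 (0.224, 0.131 and 0.189), which was among the highest with acj6, nompB (0.198, 0.267 and 0.133) and Hmx (0.178, 0.275 and 0.269).

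Over 5469 genes 2.72% lay above 1 with vvl in all 3 libraries and 2.16% below. Of 44 identity factors 11 were above and 15 below. The homeobox list had 3 of 6 above, namely Antp (2.60, 2.34 and 2.42), Ubx (2.06, 2.16 and 1.79) and tsh (2.11, 2.08 and 1.97), a zinc finger gene of the trunk. Of 11 temporal factors cas, grh (3.24, 2.21 and 2.36) and klu were above and Imp was below. VGlut was the only transmitter gene that passed, at 0.836, 0.860 and 0.802. In cells with UMIs of Antp, Ubx, abd-A or Abd-B, Hox genes of the nerve cord, vvl was found in 36.9%, 35.6% and 37.4%, against 18.5%, 18.6% and 19.9% of the other nSyb cells. The shares of acj6 were 12.0%, 13.3% and 12.4% against 12.2%, 13.8% and 13.3%, and those of pdm3 65.0%, 61% and 73.8% against 63.8%, 61% and 66.2%.

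In the dpn and ase gates vvl was found with homeobox and temporal genes. Its nSyb partners B-H1 and B-H2 passed in neither of these gates. In the ase gate B-H1 had odds ratios of 1.15, 1.72 and 1.05 and B-H2 0.974, 1.28 and 1.21, and in the dpn gate B-H1 had 0.670, 0.677 and 0.416 and B-H2 0.369, 0.675 and 0.514. In the ase gate all 7 genes of the homeobox list in range had odds ratios above 1 with vvl in every library. Beside them stood 7.99% of 4993 genes above and 9.13% below. unpg had 6.74, 8.42 and 8.92, the homeodomain cofactor hth 5.34, 3.27 and 4.49, Antp 3.07, 3.06 and 3.45, and tsh 2.78, 2.84 and 3.27. Of 11 temporal factors grh (5.27, 4.28 and 3.73), svp, Eip93F, hth and klu were above, and mamo, slp1, slp2 and opa below. pdm3 showed the reverse for many of them: 6 of 7 genes of the homeobox list were below, as was grh (0.233, 0.237 and 0.253). mamo was above at 7.50, 6.05 and 7.69. That reading of pdm3 stands beside 24.7% of genes above and 8.61% below, and beside VAChT, ChAT and VGAT above 1, genes of neurons rather than of progenitors. With acj6, 6 of 35 identity factors were above and none below in the ase gate, where 7.37% of all genes were above and 0.180% below.

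In the dpn gate, where 4.5% of 4912 genes lay above 1 with vvl in all 3 libraries and 1.34% below, 4 of 9 temporal factors were above and 2 below. grh, a late neuroblast factor, had odds ratios of 19.4, 11 and 16.9 with vvl, and svp, a nuclear receptor that times neuroblast transitions, 14.6, 5.95 and 9.73. hth (10.5, 3.73 and 6.30) and ct, a homeobox gene (10.0, 3.77 and 8.83), were above as well. slp2 (0.435, 0.481 and 0.364), opa (0.227, 0.598 and 0.419) and hbn (0.395, 0.391 and 0.325), genes of medulla neuroblasts and their progeny among others, were below. With pdm3 the transmitter genes VAChT (6.98, 5.30 and 6.45), ChAT and VGAT, 3 of 5 in range, were above in the same gate, beside 8.77% of all genes above and 0.896% below.

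nub and pdm2 were found in few cells. nub was found in 11, 43 and 20 called cells of control, mud and nanobody, and pdm2 in 5, 21 and 8. In all called cells 42, 143 and 75 nub UMIs and 11, 79 and 30 pdm2 UMIs were counted. Of these cells 8, 36 and 13 nub cells and 4, 18 and 8 pdm2 cells were in the nSyb gate. The dpn gate held 1, 8 and 5 nub UMIs and 0, 7 and 0 pdm2 UMIs, and the ase gate 1, 9 and 3 nub UMIs and 2, 3 and 0 pdm2 UMIs. The highest cell had 12, 18 and 16 nub UMIs, and 3, 12 and 7 cells had at least 5.

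The mud library held more of both. In the nSyb gate 132 nub UMIs in mud and 64 in nanobody stood against 37 in control, ratios of 3.03 and 1.51 in CPM without a pseudocount. For pdm2, 74 and 30 UMIs stood against 9, ratios of 6.97 and 2.91. As log2 ratios without a pseudocount these are 1.60 (1.06 to 2.16) and 0.59 (-0.01 to 1.22) for nub and 2.80 (1.80 to 3.99) and 1.54 (0.43 to 2.80) for pdm2. With the pseudocount of 5 CPM they shrink to 0.37, 0.10, 0.31 and 0.11, and neither gene reached 20 CPM, so neither could be called. The UMIs came from few cells, 36 and 18 in mud, which makes counting intervals over UMIs too narrow. In barcodes of 20 to 200 UMIs nub stood at 0.402, 1.56 and 0.528 CPM and pdm2 at 0, 0.838 and 0.211 CPM, so mud was also highest there.

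The paralogs were found in the same cells. Of the nSyb cells with nub, 3 of 8 in control, 16 of 36 in mud and 7 of 13 in nanobody also held pdm2. These were 75%, 88.9% and 87.5% of the pdm2-positive cells, where pdm2 was in 0.0799%, 0.314% and 0.153% of all nSyb cells. At most 0.25 cells with both were expected in any library. Over all called cells those with both genes held 45.2%, 69.2% and 69.3% of nub UMIs and 72.7%, 92.4% and 83.3% of pdm2 UMIs. After doublet removal 2 of 3, 15 of 18 and 6 of 7 of these cells remained.

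The paralogs were seldom found with pdm3. nub and pdm3 were together in 2, 10 and 0 nSyb cells, where 5.05, 21.6 and 8.73 were expected, with odds ratios of 0.196 (0.0399 to 0.965) in control and 0.261 (0.127 to 0.538) in mud. pdm2 and pdm3 were together in 1, 4 and 0 cells, where 2.42, 10.9 and 5.48 were expected, with an odds ratio of 0.188 (0.0623 to 0.566) in mud. No cell of the nanobody nSyb gate held pdm3 with either paralog, so no odds ratio could be fitted there. vvl was with nub in 4, 15 and 4 cells (2.28, 10.2 and 3.54 expected) and with pdm2 in 1, 8 and 3 (1.26, 5.16 and 2.17 expected), and the mud odds ratios of 1.83 (0.935 to 3.6) and 1.95 (0.780 to 4.88) had intervals that held 1. acj6 was with nub in 1, 5 and 2 cells (1.23, 5.82 and 2.43 expected), at 0.832 (0.319 to 2.17) in mud, and with pdm2 in 2, 1 and 2.

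Cells with either paralog were deep and often held Kr and Imp. There were 9, 38 and 14 of them in the nSyb gate, with medians of 18058, 14111.5 and 16187 UMIs, far above the gate medians of 7946.5, 7678 and 8760.5. To compare them with other nSyb cells the 61 cells of the 3 libraries were pooled, within 5 UMI strata of each library. Depth differences within the strata remain, and their part was not tested. Kr, the factor before nub and pdm2 in the embryonic series, was in 40 of 61 cells, or 65.6%, against 5.12% of the others. It was in 4 of 9, 27 of 38 and 9 of 14 cells by library, and its odds ratio was 22.8 (13 to 39.9). Imp was in 59 of 61 cells against 46.6% of the others, with an odds ratio of 18.9 (4.28 to 83.9). hb, which precedes Kr in the embryonic series, was in 10 of the 61 cells against 0.120% of the others.

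Several genes were rarer in these cells. pdm3 was in 13 of 61, or 21.3%, against 64.6% of the others, with an odds ratio of 0.173 (0.0946 to 0.315) and counts of 2, 11 and 0 by library. Syp, an RNA-binding protein that replaces Imp in later neuroblasts, was in 57.4% against 79.9%, at 0.213 (0.125 to 0.362). dati and mamo were at 0.211 (0.108 to 0.413) and 0.305 (0.180 to 0.515), and br at 0.508 (0.270 to 0.958). vvl was in 25 of 61 cells, or 41.0% against 24.4%, at 1.80 (1.07 to 3.01), and acj6 in 9 of 61, or 14.8% against 13%, at 0.877 (0.427 to 1.80).

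Among genes of the lists with at least 1 cell expected, 2 of 16 temporal factors were above and 4 below. Of 49 identity factors 4 were above and 3 below. Of 11 genes of the homeobox list 3 were above and none below, and of 7 transmitter genes 2 were above and none below. Over 7255 genes with at least 1 cell expected 17% were above and 8.02% below, so the shares of temporal and identity factors above were lower than that of all genes. Those of the homeobox list were abd-A (3.08), Abd-B (3.14) and the zinc finger gene tsh (2.56). The transmitter genes were VGAT (3.12), the vesicular GABA transporter, and Tbh (2.91), the enzyme that makes octopamine. The identity genes above were en, ems, zfh2 and nvy, and those below dac, ct and bi. Of the 61 cells 38 came from mud, so the pooled values lean on that library.

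**Figure D5:**
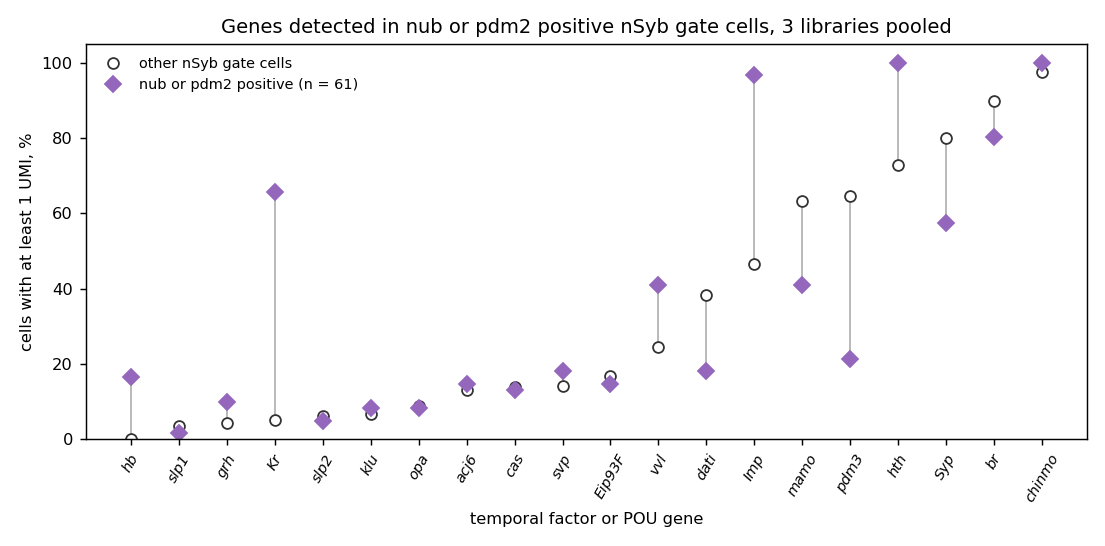
Share of cells with at least 1 UMI of each temporal factor or POU gene (percent), for the 61 nSyb gate cells with nub or pdm2 (diamonds) and for the other nSyb gate cells (circles), the 3 libraries pooled and without correction for depth. Kr stands at 65.6% against 5.12%, Imp at 96.7% against 46.6% and pdm3 at 21.3% against 64.6%.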

How the data were processed

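The deposited values are unnormalized UMI counts for all observed barcodes, from Cell Ranger 9.0.1 per the file headers. The libraries are 10x GEM-X 3′ libraries per the labels' protocols, and Seurat is also named in the submitters' processing notes. The genome build, the annotation and the handling of introns are not given in the sources used here. Of 13988 features 13976 matched Ensembl release 115 (BDGP6.54) by identifier.

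Cells were called and gated as in the report, with no doublets removed (Scrublet in scanpy 1.11.5 was an alternative). UMIs were summed per gate and library, with Poisson intervals for CPM, Clopper-Pearson intervals for shares, conditional binomial intervals for ratios and Mantel-Haenszel odds ratios over 5 UMI strata. Genes had to reach 20 CPM in 1 of 2 libraries for a call. Thinning drew 1000 UMIs per cell. TMM (edgeR 4.0.16) and median-of-ratios (DESeq2 1.42.0) scalings were alternatives. The calculations were tested on simulated data. The genes named are the 5 members, the genes ranked by co-detection as described, and listed genes. The members and the lists were chosen with earlier results of these data known. PCR duplicates are removed by UMIs, and intervals cover counting error only.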

Additional observations from a re-analysis of the deposited data

Results flagged for a closer look

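Some genotype differences went in opposite directions in different gates of the same libraries. None of these differences between gates was tested, since each genotype has 1 library, and the comparisons share the control library. For pdm3, mud was above control in the dpn gate and the ase gate and below it in the nSyb gate, so that the log2 ratios differed by 0.642 between dpn and nSyb cells and by 0.891 between ase and nSyb cells. For acj6, mud was above control in the ase gate and below it in the dpn gate and the nSyb gate, with gaps of 0.539 and 0.235. The acj6 directions turned in some recalculations: with cells of 2 or more gates left out mud was below control in the ase gate too, at -0.11, and with doublets removed it was above control in the dpn gate, at 0.15. For vvl, mud was above control in the dpn gate and below it in the ase gate, a gap of 0.511, but after thinning to 1000 UMIs the dpn difference was -0.29, from 107 CPM in control and 87.0 CPM in mud. For vvl, nanobody was above control in the nSyb gate and below it in the ase gate, a gap of 0.528.

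Signal was also seen in barcodes of 20 to 200 UMIs, which enter no comparison between cells. There acj6 was at 103 CPM in mud against 82.3 CPM in control, and vvl at 166 CPM in mud against 143 CPM in control. pdm3 was at 739 CPM in mud and 547 CPM in nanobody, against 393 CPM in control. The mud value of pdm3 in these barcodes was close to its level of 763 CPM in mud nSyb cells.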

How the results depend on the processing

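Of 114 recalculations of the nSyb gate differences and of the nub and pdm2 odds ratios, 91 stayed within the original counting interval and 23 did not; of 153 others, chosen after seeing the data except for the original values, 121 stayed within it. With scored doublets removed pdm3 was -0.39 for mud and 0.10 for nanobody, and the nub and pdm2 odds ratio in mud went from 1390 to 13100. With cells of 2 or more gates left out acj6 in mud was -0.03, pdm3 in mud -0.31 and that odds ratio 14400. With at least 2 nSyb UMIs vvl was 0.06 for mud and 0.13 for nanobody. With cells thinned to 1000 UMIs acj6 was -0.20 for mud and, with its sign turned, -0.10 for nanobody, pdm3 was -0.33 and 0.03, nub in nanobody -0.06 and pdm2 in mud 0.19. TMM scaling gave pdm3 in nanobody 0.15. A pseudocount of 1 CPM gave 0.95 and 0.30 for nub and 1.02 and 0.41 for pdm2, and none gave 1.60 and 0.59, and 2.80 and 1.54. The cause of these shifts was not tested, apart from the pseudocount, which by construction shrinks low genes. No acj6, pdm3 or vvl difference in the nSyb gate reached 1.5-fold under any of them.

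In the dpn gate acj6 in mud ranged from -1.04 to 0.15, vvl in mud from -0.29 to 0.22 and vvl in nanobody from -0.69 to 0.07 over 6 settings, and pdm3 in nanobody from 0.55 to 1.22, its call ending at 0.55. acj6 in mud ranged from -0.11 to 0.15 in the ase gate. In the ase gate pdm3 ranged from 0.36 to 0.56 for mud and from 0.68 to 0.86 for nanobody, and vvl from -0.53 to -0.34 and from -0.52 to -0.45. The acj6 and vvl odds ratios in the nSyb gate ranged from 0.267 to 0.548 over 9 settings and 3 libraries, and those of pdm3 and vvl from 1.65 to 2.89. The nub and pdm2 odds ratio was 1490 in control and could not be fitted in nanobody, nor under thinning or at 2 UMIs in control. Alternatives by roX1 and roX2 were not run, as these genes were not analysed here. No paired analysis was possible because each genotype has 1 library, and for the same reason no replicate could be left out.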

Other observations

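Cells outside every gate were also split by markers of new neurons. Those with at least 2 UMIs of Hey, a Notch target in newborn neurons, numbered 1282 in control, 1026 in mud and 1048 in nanobody. Those with at least 2 UMIs of nerfin-1, a zinc finger gene of young neurons, and no Hey UMI numbered 2946, 2747 and 2710. acj6 was at 83.3, 90.5 and 73.0 CPM in the Hey cells and at 156, 145 and 140 CPM in the nerfin-1 cells. pdm3 was at 350, 335 and 449 CPM against 474, 498 and 601 CPM. vvl was at 221, 198 and 202 CPM against 223, 209 and 233 CPM. acj6 and pdm3 were therefore lower in Hey cells in every library, and the vvl intervals overlapped in control and mud. acj6 was nevertheless in similar shares of the Hey cells (6.08%, 6.63% and 7.44%) and the nerfin-1 cells (6.38%, 8.01% and 7.16%).

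Within the nSyb gate the level of pdm3 did not follow nSyb itself. It was at 811, 677 and 872 CPM in cells with 1 nSyb UMI, at 1219, 968 and 1298 CPM in cells with 2 to 4, and at 907, 678 and 1004 CPM in cells with 5 or more. acj6 was also highest in the middle class, at 211, 220 and 216 CPM, against 156, 157 and 157 CPM below it and 159, 136 and 174 CPM above it.

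Genes of the lists were also compared between libraries at 1.5-fold. In the nSyb gate 4.33% of all genes were called up and 0.705% down for mud, and 0.421% up and 0.801% down for nanobody. Of 35 identity factors tested Hmx was up in mud and Dll down in nanobody, with medians of 0.02 and -0.11. Of 15 temporal factors tested in mud grh, svp, slp2 and klu were up and Eip93F was down. Of 13 tested in nanobody dati was up, and Kr and cas were down. Vmat was the 1 of 7 transmitter genes called, up in mud, and Abd-B the 1 of 8 genes of the homeobox list called, down in nanobody. In the dpn gate 6.44% of all genes were called up and 1.24% down for mud, and 1.10% up and 0.366% down for nanobody. The trunk genes Antp, Ubx and tsh were up in both altered libraries there, and abd-A in mud, of 6 and 5 genes of the homeobox list tested. Of 27 identity factors 4 were up and 2 down in mud, and of 25 in nanobody 2 were up and 3 down. Of 15 temporal factors grh, svp and Imp were up and slp1 down in mud, and none was called in nanobody. VAChT and VGlut, the 2 transmitter genes tested, were up in mud. In this gate 141 of 862 mud cells and 49 of 457 control cells also held nSyb UMIs, and their part was not tested.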
